A study of Mus musculus with 68 samples.

Results

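Mouse embryos made by somatic cell nuclear transfer (SCNT) were compared at the 8-cell stage (8C) and the morula, the interval in which the blastomeres compact. The comparison took the libraries titled NT-8cell and NT-Morula, 6 of each, which are 12 of the 68 libraries in the series. Of the 24421 reference genes in each table, 9887 had a mean of at least 1 TPM (a level scaled to the library and to transcript length) over the 12 libraries and were tested. In every one of the 12, the embryo had received a cumulus cell (CC) as nuclear donor in an enucleated metaphase II oocyte from a BDF1 female, and had been activated with strontium chloride and cytochalasin B and cultured in G-1 PLUS medium. The zona pellucida was removed and 10 blastomeres went into each library, which was made by poly(A)-primed Smart-seq2 amplification and sequenced as read pairs. The labels list these embryos as untreated with the cell type NT, and give no sex or age. The 8C and morula libraries therefore share donor cell type, oocyte source, activation and culture, and differ by stage. The study followed the histone mark H3K9me3 through SCNT development, and these libraries are its RNA measurement on either side of compaction. The labels do not say whether the 6 libraries of a stage came from separate embryos or collections. Legends of SCNT expression plots in the study call 6 samples biologically independent. The p-values measure only the spread between these libraries, which may in part be technical.

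At compaction the blastomeres of the mouse embryo flatten against each other. E-cadherin and its catenin partners bring neighbouring membranes together, the actomyosin cortex tightens, and PAR proteins and ezrin mark an apical domain on the outer face. In outer cells the Hippo kinases are held back, and YAP and TAZ act with TEAD4 to switch on Cdx2 and Gata3, the entry to trophectoderm (TE), while inner cells keep the pluripotency factors of the inner cell mass (ICM). Over the same period the embryo begins to use glucose in place of pyruvate, and lays down the tight junctions and ion pumps that later hold the blastocoel.

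Of the genes tested, 2135 were called, meaning a limma adjusted p below 0.05 and a difference of at least 2-fold on the log2(TPM + 1) scale, which is 21.6%. Of these, 1595 (16.1% of the genes tested) were higher in the morula and 540 (5.46%) were lower, and in 1116 genes (11.3%) the 6 libraries of a stage did not overlap those of the other. The balance of rises and falls depended on how libraries were scaled. The median gene was 0.29 higher in the morula on the log2 scale, and the changes of single genes and lists are to be read against that shift. Counts of called list members are likewise to be read against the shares of 16.1% higher and 5.46% lower. After quantile normalization, which gives all libraries the same distribution, the median was -0.01, and 896 genes (9.06%) were called higher and 1000 (10.1%) lower. Of the calls, 1436 (67.3%) were also made in the same direction after quantile normalization, and none had the opposite sign there.

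Libraries of a stage resembled each other, with Pearson correlations of log2(TPM + 1) of 0.940 to 0.976 within 8C, 0.944 to 0.979 within morula and 0.889 to 0.953 between stages. Depth, given as aligned bases recovered from the deposited coverage and FPKM, was 2.89 to 3.42 gigabases for 8C and 2.92 to 4.22 for morula. A library detected 8702 to 8996 genes at 1 TPM or more at 8C (median 8896) and 9165 to 10509 at morula (median 9481). The share of the deposited TPM that fell in reference genes was 76.0% to 84.4% at 8C (median 82.7%) and 87.1% to 89.7% at morula (median 87.6%). Both measures were higher in every morula library (differences of means 790.8 genes and 6.39 percentage points, each with p = 0.00216 by a two-sided exact permutation test, the smallest value the 924 arrangements allow). They move with stage beside every result given here, and their part in the results was not tested. Morula replicates 2 and 3 lay apart from the other 4 morula libraries. Without both, 1340 genes were called higher and 822 lower, and counts that moved by more than 1.5 times are given with each gene group. The study's methods name a pair of sequencing providers. Their library protocol gives 3 replicates per stage, fewer than were deposited, and their statistics section gives 2 to 6 experiments per group. The labels do not say which libraries were made or sequenced together, so replicates 1 to 3 and 4 to 6 of a stage may be separate series. These did not overlap at 8C on the first and second principal components of the log2 levels (39.5% and 14.1% of the variance), or at morula on the third (12.7%). Fitted within replicates 1 to 3, 925 of 10069 genes tested were called higher and 227 lower. Within replicates 4 to 6 it was 1296 and 876 of 9548, and with the series as a covariate, 1730 and 595 of 9887. Of all 2135 calls, 885 (41.5%) were made in the same direction within replicates 1 to 3. Within replicates 4 to 6 it was 1414 (66.2%), and in each series 1 of the calls had the opposite sign. The 125 called genes named here were chosen in part for large changes in these libraries. Of them, 79 were also called within replicates 1 to 3 and 105 within replicates 4 to 6. None of the 125 had the opposite sign in either, and Gdf15 was below the filter within replicates 1 to 3. Called in neither were 9: Ezr, Amotl2, Jup, Btg4, Daxx, Dnmt3b, Ccne2, Mcm2 and Gclm. Counts within each series stand with each gene group, and so do values of genes that moved by more than 1.5 times. The list counts within a series are to be read against that series' own counts over all genes. The shares of the main comparison do not apply to them, and the members tested can differ between fits. Of 20 cumulus cell markers, 8 were at 0 in all 12 libraries, among them Has2, Cyp19a1, Fshr and Lhcgr, and 18 averaged under 1 TPM at both stages. Their summed level was 9.85 to 40.9 TPM at 8C and 7.52 to 28.1 at morula, against 1840 to 2597 in CC. With Amhr2 left out, the highest library had 2.79 TPM at 8C and 13.5 TPM at morula. The 5 markers of oocytes or polar bodies (Zp1, Zp2, Zp3, Gdf9 and Bmp15) summed to 5.601 to 14.8 TPM at 8C and 1.15 to 9.55 at morula. Since these are bulk libraries, fewer cells of a type and less RNA per cell cannot be told apart.

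Levels are given here as the median of the 6 libraries in TPM with the lowest and the highest library in parentheses, and changes as the log2 fold change ± SE on the log2(TPM + 1) scale, which understates the change of genes near 1 TPM. The largest rises among genes whose stages did not overlap included the glycolysis gene Pkm and the oxidant defence genes Hmox1, Sqstm1 and Cat. Nek6, a kinase of the mitotic spindle, stood at 0.972 TPM (0.0573 to 1.87) at 8C and at 46.6 TPM (40.0 to 70.7) at morula (log2 fold change 4.84 ± 0.33, limma adjusted p = 2.36e-07). Every morula library was above every 8C library, and the gene lies at chr2:38511697-38587490 (mm10). Nppb, which encodes brain natriuretic peptide, went from 5.06 TPM (0.831 to 10.0) to 115 TPM (35.6 to 236), a log2 change of 4.46 ± 0.45 (limma adjusted p = 1.10e-05). Its medians at the neighbouring stages were 0 TPM at 4C, 1.37 TPM in ICM and 4.81 TPM in TE. Serpinb9b, a serine protease inhibitor, went from 7.45 TPM (2.82 to 11.8) to 178 TPM (66.7 to 283), a log2 change of 4.42 ± 0.38 (limma adjusted p = 2.11e-06). Ass1, the argininosuccinate synthase of the arginine pathway, went from 7.76 TPM (0.837 to 33.2) to 141 TPM (65.3 to 222), a log2 change of 4.17 ± 0.58 (limma adjusted p = 1.13e-04). Elf3, an epithelial ETS transcription factor, went from 5.16 TPM (1.00 to 13.1) to 94.6 TPM (24.0 to 190.1), a log2 change of 4.06 ± 0.56 (limma adjusted p = 1.13e-04), and had a median of 516 TPM in TE. Dusp1, a phosphatase that switches off MAP kinases, went from 8.13 TPM (0.992 to 16.1) to 106 TPM (53.1 to 258), a log2 change of 4.00 ± 0.53 (limma adjusted p = 8.01e-05). Hmox1, Sqstm1, Cat and Pkm complete the 10 and are described with their groups.

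**Figure D1:**
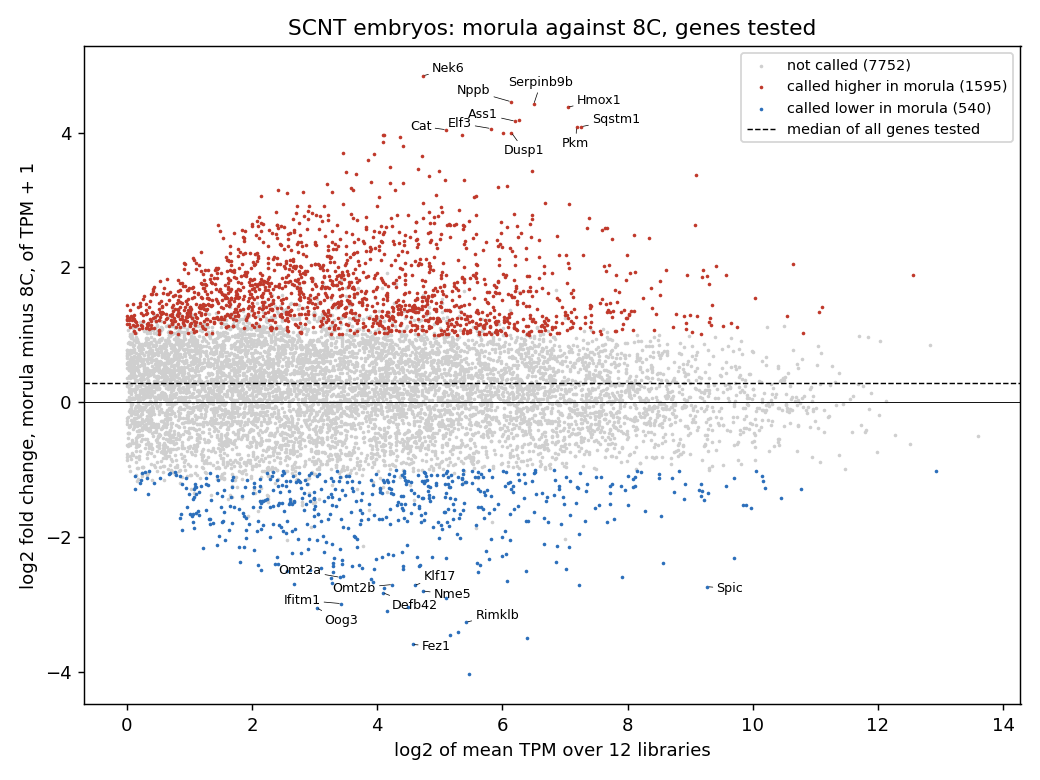
Morula minus 8C log2 fold change (vertical axis, log2(TPM + 1) scale) against the log2 of the mean level over the 12 libraries (horizontal axis) for the 9887 genes tested, with genes called higher in red, called lower in blue and the 10 named rises and 10 named falls labelled. Calls above 0 (1595) outnumber those below (540), and the labelled rises lie between 4.00 and 4.84.

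The 10 largest falls among genes without overlap included genes known from the oocyte and from early cleavage. Fez1, a cytoplasmic transport adaptor known from neurons, stood at 43.3 TPM (24.3 to 65.4) at 8C and at 2.02 TPM (0.188 to 17.7) at morula (log2 fold change -3.59 ± 0.56, limma adjusted p = 2.85e-04). All 6 morula libraries were below all 6 of 8C, and the gene lies at chr9:36843659-36878640. Rimklb, a glutamate ligase, went from 69.3 TPM (46.2 to 122) to 5.94 TPM (1.18 to 38.7), a log2 change of -3.26 ± 0.54 (limma adjusted p = 4.25e-04). Klf17, a Kruppel-like factor of early cleavage embryos, went from 39.6 TPM (24.2 to 53.5) to 4.79 TPM (1.36 to 23.0), a log2 change of -2.72 ± 0.43 (limma adjusted p = 3.64e-04). Its median at 4C was 58.4 TPM. Ifitm1, an interferon-induced membrane protein, went from 17.3 TPM (8.17 to 42.6) to 1.26 TPM (0 to 4.72), a log2 change of -2.99 ± 0.50 (limma adjusted p = 5.01e-04). Nme5, a nucleoside diphosphate kinase homologue, went from 44.1 TPM (28.5 to 80.8) to 5.90 TPM (1.37 to 12.3), a log2 change of -2.80 ± 0.38 (limma adjusted p = 1.03e-04). Defb42, a beta-defensin, went from 24.0 TPM (16.0 to 68.1) to 3.59 TPM (0.987 to 6.05), a log2 change of -2.83 ± 0.40 (limma adjusted p = 1.45e-04). The oocyte-expressed Oog3 went from 16.3 TPM (6.13 to 20.8) to 0.757 TPM (0.0430 to 2.41), a log2 change of -3.05 ± 0.40 (limma adjusted p = 8.01e-05), after a median of 146 TPM at 4C. Omt2a went from 17.0 TPM (11.9 to 31.5) to 1.99 TPM (0.880 to 5.09), a log2 change of -2.60 ± 0.37 (limma adjusted p = 1.58e-04), after 267 TPM at 4C. Omt2b went from 32.4 TPM (21.5 to 48.1) to 4.73 TPM (1.37 to 6.37), a log2 change of -2.70 ± 0.33 (limma adjusted p = 4.26e-05), after 502 TPM at 4C. Oog3, Omt2a and Omt2b belong to families of close copies, and how reads matching several copies were shared is not given in the sources used here, so their levels are uncertain. Uncertain for the same reason are the actins, ferritins, Gapdh, Eno1, Krt18, Txn1, Khdc3, Usp17lb and Tdpoz4 below, which have near-identical copies or processed pseudogenes elsewhere. Spic, the remaining fall, is described with the pluripotency genes. Klf17 had a log2 change of -1.69 (limma adjusted p = 0.0628) within replicates 1 to 3 and -3.74 (2.57e-05) within replicates 4 to 6.

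The adherens junction and integrin genes that were called were mostly higher in the morula. Of the 18 listed genes 13 were tested, 6 were called higher and 1 lower, with a median log2 fold change of 1.02 (0.29 over all genes tested). Cdh1, which encodes E-cadherin, the adhesion molecule of compaction, stood at 9.74 TPM (4.78 to 15.6) at 8C and 22.1 TPM (11.9 to 62.0) at morula (log2 fold change 1.22 ± 0.39, limma adjusted p = 0.0290). The stages overlapped, and the call was lost without 8C replicate 1, 8C replicate 4, Morula replicate 1 or Morula replicate 2 (adjusted p = 0.0544 to 0.0631). Ctnna1, alpha-catenin, the link from cadherin to actin, went from 39.7 TPM (22.4 to 51.8) to 87.5 TPM (57.8 to 193), a log2 change of 1.31 ± 0.28 (limma adjusted p = 0.00314), with no overlap. Epcam, an epithelial adhesion molecule, went from 32.9 TPM (13.1 to 34.6) to 111 TPM (101 to 144), a log2 change of 2.03 ± 0.25 (limma adjusted p = 4.44e-05). Its morula libraries all lay above its 8C libraries. Pvrl2, the immunoglobulin-like adhesion molecule nectin-2, went from 2.01 TPM (0.0288 to 7.38) to 22.8 TPM (3.96 to 40.9), a log2 change of 2.73 ± 0.57 (limma adjusted p = 0.00241), with overlap at the low end of morula. Ctnnb1, beta-catenin, was not called: it stood at 16.3 TPM (12.1 to 19.7) at 8C and 24.8 TPM (19.6 to 32.9) at morula (log2 fold change 0.58 ± 0.24, limma adjusted p = 0.0850). Jup, the gamma-catenin plakoglobin, was called higher (log2 fold change 1.29 ± 0.45, limma adjusted p = 0.0422). Itgav, an integrin alpha subunit, was called lower (log2 fold change -1.29 ± 0.41, limma adjusted p = 0.0283). Jup lost its call without any of 8 libraries, 8C replicates 1, 2, 3 and 5 and Morula replicates 2 to 5 (adjusted p = 0.0575 to 0.0956) and Itgav without 8C replicate 1 or 2 or Morula replicate 4, 5 or 6 (0.0603 to 0.0663). The count of rises fell to 3 without Morula replicate 2, to 3 without Morula replicates 2 and 3, and to 3 after quantile normalization. That of falls went to 0 without 8C replicate 1, 8C replicate 2 or Morula replicate 4, 5 or 6. Cdh1 and Jup were among the rises not called after quantile normalization (log2 fold changes 0.92 and 0.90). The adherens junction list held 2 higher and 0 lower within replicates 1 to 3, and 3 and 1 within replicates 4 to 6. Cdh1 had a log2 change of 1.97 (limma adjusted p = 0.0237) within replicates 1 to 3 and 0.47 (0.399) within replicates 4 to 6. Jup had a log2 change of 2.09 (limma adjusted p = 0.0656) within replicates 1 to 3 and 0.50 (0.418) within replicates 4 to 6.

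Of 19 listed tight junction and desmosome genes 13 were tested, 9 were called higher and none lower, with a median of 1.39. After quantile normalization 6 were called higher, and without Morula replicates 2 and 3, 7 were higher and 1, Ocln, lower. Cgn and Cldn6 were among the rises not called after quantile normalization (log2 fold changes 0.93 and 1.42). Cldn4, a barrier claudin, stood at 8.65 TPM (0.782 to 14.8) at 8C and 34.6 TPM (11.7 to 139) at morula (log2 fold change 2.63 ± 0.67, limma adjusted p = 0.00821). Its level at 4C was near 0 (median 0.0403 TPM) and in TE it was 93.0 TPM. Cldn7 went from 40.7 TPM (24.1 to 49.4) to 87.4 TPM (59.9 to 199), a log2 change of 1.32 ± 0.29 (limma adjusted p = 0.00307). Cldn6 went from 28.1 TPM (7.96 to 73.8) to 140.5 TPM (14.1 to 192), a log2 change of 1.70 ± 0.56 (limma adjusted p = 0.0335). The Cldn7 stages did not overlap, while Cldn6 lost its call without any of 7 libraries, 8C replicates 1, 2 and 3 and Morula replicates 3 to 6 (adjusted p = 0.0582 to 0.0782). Tjp3, a ZO scaffold protein, went from 0.172 TPM (0 to 2.88) to 5.11 TPM (1.25 to 11.9), a log2 change of 1.96 ± 0.47 (limma adjusted p = 0.00554). Tjp1, which encodes ZO-1, was not called, with 5.29 TPM (4.70 to 6.74) at 8C and 4.62 TPM (1.13 to 14.1) at morula (log2 fold change -0.36 ± 0.43, limma adjusted p = 0.559). Cgn, the junction plaque protein cingulin, went from 8.83 TPM (5.95 to 13.0) to 21.6 TPM (18.4 to 26.6), a log2 change of 1.25 ± 0.28 (limma adjusted p = 0.00350), with no overlap. Pkp2, the desmosomal plakophilin, went from 2.88 TPM (0.152 to 3.93) to 14.3 TPM (11.6 to 33.3), a log2 change of 2.55 ± 0.42 (limma adjusted p = 4.25e-04), also with no overlap, and later had a median of 24.1 TPM in TE and 1.32 TPM in ICM. Ocln, occludin, was not called (log2 fold change -0.64 ± 0.44, limma adjusted p = 0.291). Its median was 9.29 TPM at 8C, 4.83 TPM at morula, 30.1 TPM in ICM and 29.3 TPM in TE. The tight junction list held 4 higher and 0 lower within replicates 1 to 3, and 7 and 1 within replicates 4 to 6. Cldn4 had a log2 change of 4.69 (limma adjusted p = 0.00718) within replicates 1 to 3 and 0.56 (0.286) within replicates 4 to 6.

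**Figure D2:**
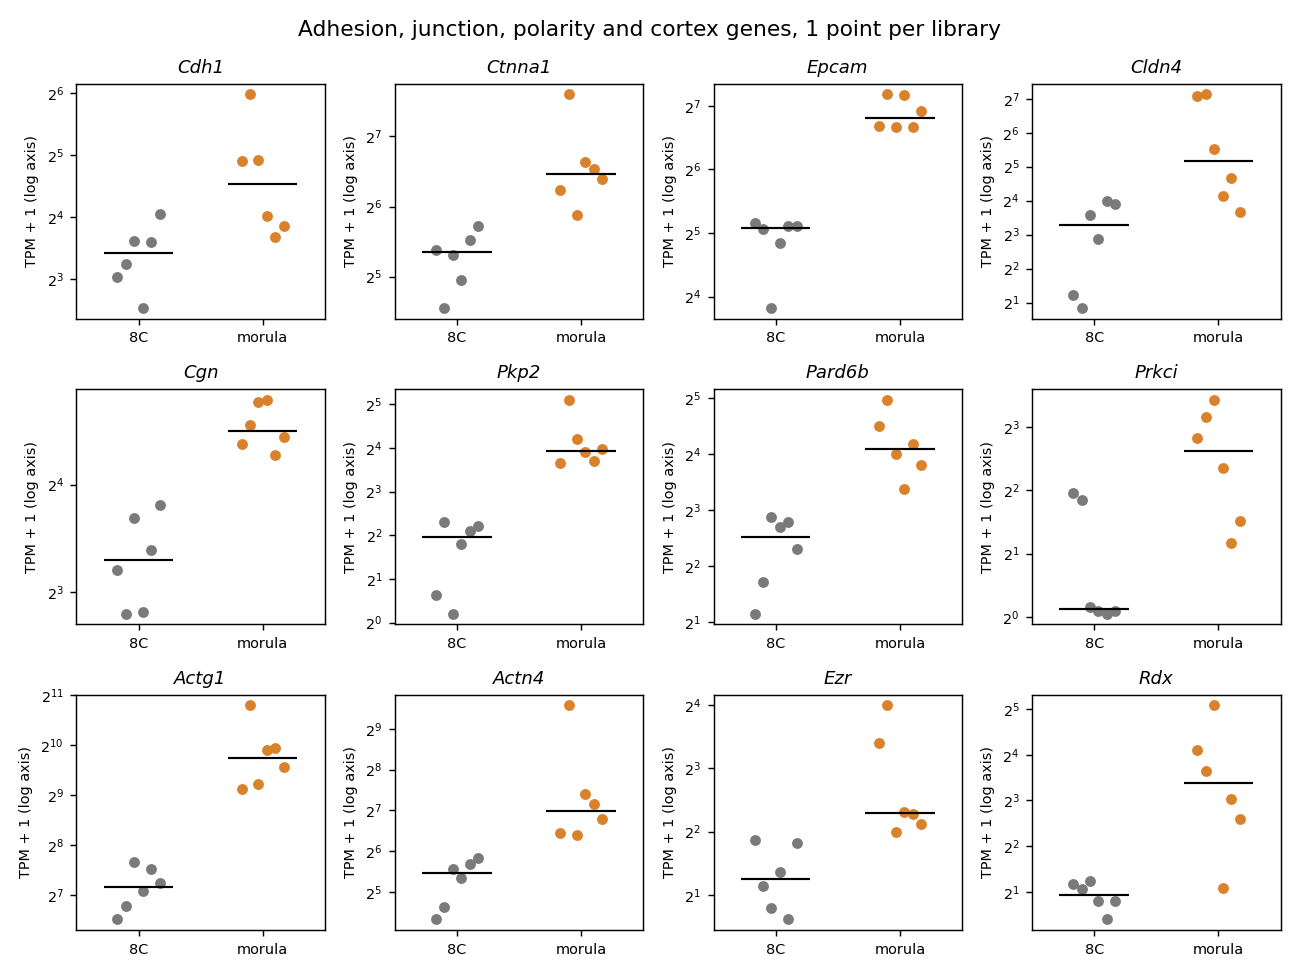
Levels of 12 adhesion, junction, polarity and cortex genes in each 8C and morula library (vertical log axis, TPM + 1, 1 point per library), with each stage's median on that scale as a bar. Epcam, Cgn, Pkp2, Pard6b, Actg1 and Actn4 separate the stages without overlap, while Cdh1 and Cldn4 overlap.

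Of the 18 listed polarity genes 14 were tested, 2 were called higher (14.3%, against 16.1% of all genes tested) and none lower, also after quantile normalization and without Morula replicates 2 and 3, and the median was 0.52. Pard6b, the PAR-6 scaffold of the apical complex, stood at 4.71 TPM (1.21 to 6.34) at 8C and 16.1 TPM (9.41 to 30.5) at morula (log2 fold change 1.89 ± 0.38, limma adjusted p = 0.00179), with no overlap. Prkci, its atypical protein kinase C partner, went from 0.0902 TPM (0.0383 to 2.88) to 5.11 TPM (1.25 to 9.74), a log2 change of 1.71 ± 0.49 (limma adjusted p = 0.0157). At 8C this kinase gene was near 0 in most libraries, after a median of 9.66 TPM at 4C. Pard3, the remaining member of the PAR complex, was below the level filter, at 0.351 TPM (0.104 to 1.60) and 0.644 TPM (0.294 to 1.65). The polarity list held 2 higher and 0 lower within replicates 1 to 3, and 3 and 1 within replicates 4 to 6. Pard6b had a log2 change of 2.59 (limma adjusted p = 0.0214) within replicates 1 to 3 and 1.197 (0.0229) within replicates 4 to 6.

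Of the cortical actin and myosin list, 19 of 22 genes were tested, 7 were called higher and none lower, with a median of 0.85. Quantile normalization gave 6 higher and 1 lower, and 8 were higher without Morula replicates 2 and 3. Ezr was not called after quantile normalization (log2 fold change 1.04). The cytoplasmic actins rose: Actb stood at 634 TPM (357 to 762) at 8C and 2785 TPM (1333 to 3487) at morula (log2 fold change 2.05 ± 0.24, limma adjusted p = 3.06e-05). Actg1 stood at 142 TPM (90.2 to 202) and 860.1 TPM (556 to 1783), a log2 change of 2.63 ± 0.26 (limma adjusted p = 9.47e-06). Neither gene's stages overlapped. Actn4, an actin crosslinker, went from 42.9 TPM (19.1 to 55.8) to 126 TPM (82.8 to 761), a log2 change of 2.06 ± 0.45 (limma adjusted p = 0.00308). Of the proteins that tie actin to the apical membrane, Ezr, ezrin, went from 1.38 TPM (0.530 to 2.65) to 3.91 TPM (2.99 to 14.97), a log2 change of 1.42 ± 0.41 (limma adjusted p = 0.0162). Rdx, radixin, went from 0.914 TPM (0.322 to 1.34) to 9.41 TPM (1.11 to 32.9), a log2 change of 2.35 ± 0.52 (limma adjusted p = 0.00336). Slc9a3r1, an ezrin-binding scaffold, went from 1.36 TPM (0.103 to 4.86) to 9.21 TPM (3.39 to 12.3), a log2 change of 2.05 ± 0.44 (limma adjusted p = 0.00312). The Ezr stages did not overlap, and those of Rdx and Slc9a3r1 did. Of the nonmuscle myosin heavy chains, Myh10 was called (median 8.06 against 21.4 TPM, ranges 4.97 to 11.8 and 16.1 to 39.0, log2 fold change 1.35 ± 0.30, limma adjusted p = 0.00335). Myh9 did not reach 2-fold (median 1.02 against 2.83 TPM, ranges 0.714 to 1.64 and 1.75 to 4.67, log2 fold change 0.93 ± 0.30, limma adjusted p = 0.0315), although its stages did not overlap, and was called without Morula replicate 2 (log2 fold change 1.03, limma adjusted p = 0.0217). The cortical list held 6 higher and 0 lower within replicates 1 to 3, and 8 and 0 within replicates 4 to 6.

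The Hippo pathway list held calls in both directions. Of 21 listed genes 17 were tested, with a median of 0.31, close to that of all genes. Of the 17, 3 were called higher (17.6%, against 16.1% of all genes tested) and 2 lower (11.8%, against 5.46%). Quantile normalization gave 2 higher and 4 lower, and Yap1 was among the 4 (log2 fold change -1.09). Wwtr1, which encodes the coactivator TAZ, stood at 4.18 TPM (2.58 to 7.73) at 8C and 14.1 TPM (6.99 to 31.3) at morula (log2 fold change 1.46 ± 0.37, limma adjusted p = 0.00855). Its relative Yap1 was not called and had a lower median at morula (median 5.38 against 2.77 TPM, ranges 3.52 to 12.9 and 1.34 to 6.90, log2 fold change -0.73 ± 0.39, limma adjusted p = 0.175). Tead4, their DNA-binding partner, was not called (median 40.4 against 38.7 TPM, ranges 16.3 to 50.4 and 32.7 to 87.3, log2 fold change 0.46 ± 0.33, limma adjusted p = 0.314). Vgll4, a TEAD cofactor that competes with YAP, was called higher (log2 fold change 2.41 ± 0.63, limma adjusted p = 0.00979). The angiomotin-like gene Amotl2 was called higher as well (log2 fold change 1.09 ± 0.36, limma adjusted p = 0.0327). The kinase gene Taok1 was called lower (log2 fold change -1.35 ± 0.37, limma adjusted p = 0.0122). So was Mob1b, an adaptor of the LATS kinases (log2 fold change -1.33 ± 0.43, limma adjusted p = 0.0291). Lats2, a LATS kinase, was not called (log2 fold change -0.49 ± 0.37, limma adjusted p = 0.334). Amotl2 lost its call without 8C replicate 2, 3 or 4 or Morula replicate 2, 3 or 6 (adjusted p = 0.0527 to 0.0692). Mob1b lost its call without 8C replicate 2, 3 or 5 or Morula replicate 4, 5 or 6 (0.0518 to 0.0671), which left 1 fall in the list. The Hippo list held 2 higher and 1 lower within replicates 1 to 3, and 2 and 3 within replicates 4 to 6. Wwtr1 had a log2 change of 2.35 (limma adjusted p = 0.0192) within replicates 1 to 3 and 0.57 (0.258) within replicates 4 to 6. Mob1b had a log2 change of -0.45 (limma adjusted p = 0.548) within replicates 1 to 3 and -2.22 (6.23e-04) within replicates 4 to 6.

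Of 22 listed trophectoderm genes 17 were tested, 9 were called higher at the morula, 8 were not called and none was lower, and the median was 1.82. Quantile normalization gave 8 higher and none lower, and without Morula replicates 2 and 3 there were 11 higher and 1 lower. Gata3, a TE transcription factor, stood at 5.85 TPM (2.33 to 19.9) at 8C and 126 TPM (51.0 to 186) at morula (log2 fold change 3.99 ± 0.44, limma adjusted p = 1.55e-05). No 8C library reached the lowest morula library, and the gene (chr2:9857078-9878600) went on to a median of 727 TPM in TE. Cdx2, the TE homeobox factor, went from 0.128 TPM (0.0547 to 0.298) to 3.87 TPM (0.348 to 12.6), a log2 change of 1.96 ± 0.46 (limma adjusted p = 0.00490). Its stages did not overlap, although it was at a low level and unequal among the morula libraries. Of the keratins, the filament proteins of epithelia, Krt8 went from 32.7 TPM (6.83 to 59.6) to 231 TPM (55.3 to 457), a log2 change of 2.95 ± 0.57 (limma adjusted p = 0.00153). Krt18 went from 59.9 TPM (27.9 to 208) to 522 TPM (62.0 to 908), a log2 change of 2.49 ± 0.58 (limma adjusted p = 0.00493). Both overlapped between stages, and their TE medians were 3845 TPM and 5458 TPM. Krt19 went from 0 TPM (0 to 0.363) to 2.90 TPM (1.89 to 28.2), a log2 change of 2.54 ± 0.52 (limma adjusted p = 0.00220). Ptges, a prostaglandin E synthase, went from 3.11 TPM (2.26 to 5.06) to 63.5 TPM (35.6 to 149), a log2 change of 3.97 ± 0.35 (limma adjusted p = 2.11e-06). Lrp2, the endocytic receptor megalin, went from 0.531 TPM (0.0837 to 1.41) to 21.6 TPM (7.27 to 38.8), a log2 change of 3.70 ± 0.38 (limma adjusted p = 1.13e-05). Both were without overlap. Fabp3, a fatty acid binding protein, went from 96.0 TPM (42.8 to 119) to 538 TPM (103 to 1047), a log2 change of 2.43 ± 0.43 (limma adjusted p = 7.93e-04). Tfap2c, an AP-2 factor upstream of Cdx2, was not called (median 42.2 against 51.6 TPM, ranges 13.2 to 60.7 and 32.5 to 139.5, log2 fold change 0.77 ± 0.43, limma adjusted p = 0.187). Eomes was below the level filter, at 0.1702 TPM (0.0543 to 0.459) and 1.33 TPM (0.485 to 2.20). Hand1, a trophoblast factor, was not called and had a lower median at morula (median 37.5 against 7.68 TPM, ranges 18.9 to 81.2 and 3.46 to 149, log2 fold change -1.19 ± 0.74, limma adjusted p = 0.233). It was called lower without Morula replicate 2, which made 1 fall in the list, and also without Morula replicates 2 and 3. The trophectoderm list held 7 higher and 0 lower within replicates 1 to 3, and 12 and 1 within replicates 4 to 6.

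The pluripotency list held calls both ways. Of 22 listed genes 21 were tested, 8 were called higher and 3 lower, with a median of 0.24, and quantile normalization gave 4 higher and 5 lower. Pou5f1, which encodes OCT4, stood at 24.5 TPM (4.50 to 55.5) at 8C and 70.0 TPM (55.7 to 351) at morula (log2 fold change 2.29 ± 0.57, limma adjusted p = 0.00698). The stages did not overlap, and Morula replicate 2 was far above the other 5. Tfcp2l1, a factor of naive pluripotency, went from 4.84 TPM (0.990 to 6.97) to 20.6 TPM (14.98 to 41.1), a log2 change of 2.28 ± 0.37 (limma adjusted p = 3.96e-04). Tbx3, a T-box factor, went from 4.42 TPM (0.554 to 7.70) to 16.2 TPM (11.04 to 98.4), a log2 change of 2.32 ± 0.54 (limma adjusted p = 0.00510). Zfp42, known as REX1, went from 45.3 TPM (23.7 to 80.8) to 157 TPM (54.6 to 204), a log2 change of 1.69 ± 0.37 (limma adjusted p = 0.00311). Nanog was not called: it stood at 16.2 TPM (7.23 to 36.0) at 8C and 54.6 TPM (3.77 to 148) at morula (log2 fold change 1.29 ± 0.60, limma adjusted p = 0.116). Its lowest value was in a morula library, and without Morula replicate 3 it was called (log2 fold change 1.91, limma adjusted p = 0.00179). Sox2 was near 0 at both stages, with no library above 0.0389 TPM. Klf4 was not called (log2 fold change -0.14 ± 0.36, limma adjusted p = 0.797). The falls were Spic, Fgf4 and Prdm14. Spic, an ETS factor, stood at 925 TPM (519 to 1749) at 8C and 148 TPM (75.1 to 375) at morula (log2 fold change -2.73 ± 0.38, limma adjusted p = 1.24e-04). Its median was 96.9 TPM at 4C and 785 TPM in ICM, so the medians went up, down and up again over these stages. Fgf4, the growth factor that inner cells later send out, went from 7.42 TPM (3.63 to 10.6) to 0.993 TPM (0.710 to 3.43), a log2 change of -1.88 ± 0.35 (limma adjusted p = 0.00118). Prdm14 went from 3.57 TPM (1.64 to 5.05) to 0.282 TPM (0.0519 to 0.798), a log2 change of -1.66 ± 0.33 (limma adjusted p = 0.00167). The chromatin protein gene Dppa4 was just under the 2-fold threshold (median 791 against 423 TPM, ranges 706 to 1107 and 364 to 479, log2 fold change -0.999 ± 0.15, limma adjusted p = 2.01e-04). Dppa3, known as STELLA, among the most abundant transcripts, stood at 14117 TPM (13433 to 15651) at 8C and 9800.2 TPM (7619.9 to 14526) at morula (log2 fold change -0.50 ± 0.13, limma adjusted p = 0.00814). Tdh, a threonine dehydrogenase, was called higher (log2 fold change 2.52 ± 0.82, limma adjusted p = 0.0304). It was not called without 8C replicate 1, 2 or 3 or Morula replicate 1, 2 or 4 (adjusted p = 0.0582 to 0.0742). Without Morula replicate 1 the list held 5 rises, and without 8C replicate 3 or Morula replicate 5 it held 5 falls, Dppa4 among them. The pluripotency list held 5 higher and 3 lower within replicates 1 to 3, and 6 and 3 within replicates 4 to 6. Spic had a log2 change of -1.39 (limma adjusted p = 0.0181) within replicates 1 to 3 and -4.08 (3.24e-07) within replicates 4 to 6. Pou5f1 had a log2 change of 3.84 (limma adjusted p = 0.0123) within replicates 1 to 3 and 0.74 (0.0370) within replicates 4 to 6. Tdh had a log2 change of 4.01 (limma adjusted p = 0.0451) within replicates 1 to 3 and 1.03 (0.0202) within replicates 4 to 6. Tbx3 had a log2 change of 3.43 (limma adjusted p = 0.0279) within replicates 1 to 3 and 1.203 (0.0218) within replicates 4 to 6.

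**Figure D3:**
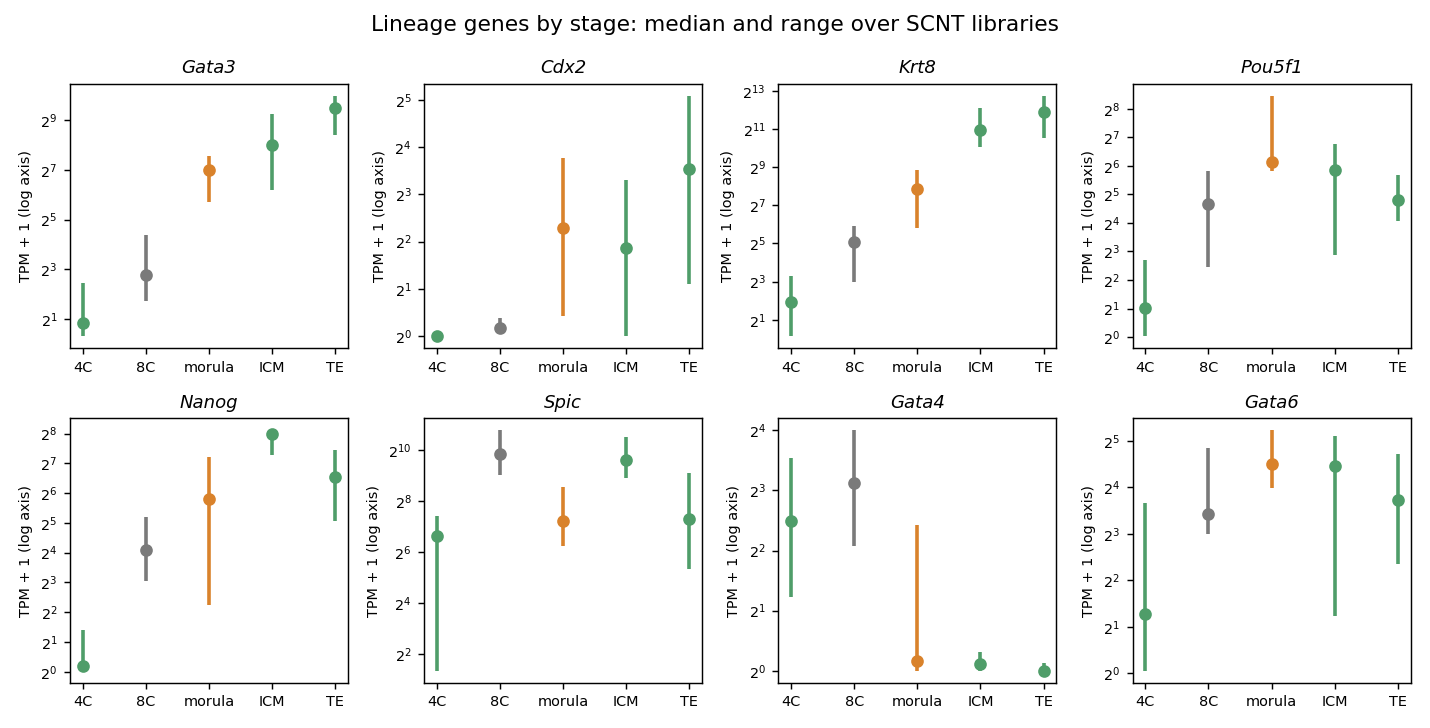
Median level (points) and range over libraries (bars) of 8 lineage genes at 4C, 8C, morula, ICM and TE (vertical log axis, TPM + 1). The Gata3 and Krt8 medians are higher at each column up to TE, Spic dips at morula between 8C and ICM, and Gata4 leaves 8C at a median of 7.74 for 0.124 at morula.

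Of the primitive endoderm list, 10 of 17 genes were tested, 5 were called higher and 1 lower, with a median of 1.10 (4 and 1 after quantile normalization). The rises were matrix and membrane genes. Sparc, a matrix glycoprotein, stood at 0.424 TPM (0.0347 to 1.68) at 8C and 11.2 TPM (3.27 to 22.7) at morula (log2 fold change 2.91 ± 0.44, limma adjusted p = 2.55e-04). Dab2, an endocytic adaptor, went from 40.5 TPM (5.20 to 64.8) to 164 TPM (51.8 to 251), a log2 change of 2.16 ± 0.51 (limma adjusted p = 0.00514). The collagen IV chains Col4a1 and Col4a2 were called too (log2 fold change 1.66 ± 0.35, limma adjusted p = 0.00254, and for Col4a2 log2 fold change 1.56 ± 0.42, limma adjusted p = 0.0115). The lineage's transcription factors were not called higher. Gata4 was called lower, from 7.74 TPM (3.23 to 14.96) to 0.124 TPM (0 to 4.37), a log2 change of -2.49 ± 0.46 (limma adjusted p = 0.00108). Gata6, which the inner cells express early, was not called (median 9.78 against 21.7 TPM, ranges 7.04 to 28.0 and 14.8 to 36.5, log2 fold change 0.87 ± 0.38, limma adjusted p = 0.0943), although it was called without 8C replicate 6 (log2 fold change 1.09, limma adjusted p = 0.0375). Sox17 and Pdgfra were below the filter, with no library above 0.109 TPM and 0.560 TPM. Sparc, Dab2 and the collagens are also made by other cell types, and the CC medians of Sparc and Col4a1 were 402 TPM and 76.8 TPM. The primitive endoderm list held 1 higher and 0 lower within replicates 1 to 3, and 4 and 1 within replicates 4 to 6.

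Genes of ion, water and sugar transport held a few calls in both directions. Of 15 listed genes 11 were tested, with a median of 0.35. Of the 11, 3 were called higher (27.3%, against 16.1% of all genes tested) and 1 lower (9.09%, against 5.46%). Quantile normalization left the counts at 3 and 1. Slc2a3, the glucose transporter GLUT3, stood at 9.80 TPM (6.63 to 14.7) at 8C and 84.4 TPM (67.7 to 345) at morula (log2 fold change 3.20 ± 0.36, limma adjusted p = 2.07e-05). Its lowest morula library was above its highest 8C library, and Morula replicate 2 was the highest. Slc2a1, the transporter GLUT1, went from 0.604 TPM (0.0220 to 8.80) to 24.9 TPM (1.93 to 80.7), a log2 change of 3.27 ± 0.67 (limma adjusted p = 0.00215), with overlap. Atp1b1, the beta subunit of the sodium pump, went from 5.67 TPM (3.26 to 11.4) to 34.3 TPM (14.6 to 60.2), a log2 change of 2.25 ± 0.36 (limma adjusted p = 3.96e-04), with none. Aqp3, a water and glycerol channel, was not called (median 25.6 against 88.8 TPM, ranges 10.0 to 63.1 and 14.0 to 369, log2 fold change 1.64 ± 0.60, limma adjusted p = 0.0515). It was called without 8C replicate 5, 8C replicate 6 or Morula replicate 3 (adjusted p = 0.00534 to 0.0365). Aqp11, another aquaporin, was called lower (median 28.2 against 2.77 TPM, ranges 4.59 to 68.0 and 1.63 to 29.6, log2 fold change -2.23 ± 0.65, limma adjusted p = 0.0171). The transport list held 2 higher and 0 lower within replicates 1 to 3, and 3 and 2 within replicates 4 to 6.

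Of 21 listed genes of glycolysis and pyruvate 19 were tested, 10 were called higher and 1 lower, with a median of 1.26, and 8 were higher and 1 lower both after quantile normalization and without Morula replicates 2 and 3. Pkm, pyruvate kinase, the last enzyme of glycolysis, stood at 14.5 TPM (7.92 to 25.4) at 8C and 294 TPM (146 to 365) at morula (log2 fold change 4.08 ± 0.31, limma adjusted p = 5.70e-07). All its morula libraries were above all its 8C libraries. Gapdh went from 12.5 TPM (7.23 to 19.3) to 159 TPM (56.2 to 289), a log2 change of 3.43 ± 0.36 (limma adjusted p = 1.19e-05). Eno1, enolase, went from 36.8 TPM (25.7 to 50.6) to 376 TPM (64.6 to 437), a log2 change of 2.59 ± 0.44 (limma adjusted p = 5.91e-04). Tpi1, triose phosphate isomerase, went from 18.0 TPM (11.04 to 22.1) to 90.8 TPM (48.2 to 182), a log2 change of 2.41 ± 0.30 (limma adjusted p = 5.68e-05). None of these 3 overlapped between stages. Upstream in the pathway, Gpi1, glucose phosphate isomerase, went from 8.36 TPM (2.82 to 10.9) to 37.3 TPM (22.1 to 74.6), a log2 change of 2.30 ± 0.34 (limma adjusted p = 2.01e-04). Aldoa, aldolase, went from 314 TPM (201 to 449) to 1234 TPM (702 to 1562), a log2 change of 1.89 ± 0.22 (limma adjusted p = 2.75e-05). Hk2, a hexokinase, which takes glucose into the pathway, was not called (median 14.5 against 18.1 TPM, ranges 9.77 to 19.03 and 3.54 to 22.6, log2 fold change -0.0026 ± 0.37, limma adjusted p = 0.996). Pgk1, phosphoglycerate kinase, was not called either (log2 fold change 0.96 ± 0.58, limma adjusted p = 0.223). Ldha, lactate dehydrogenase A, had an adjusted p at the threshold (median 10.8 against 27.05 TPM, ranges 4.97 to 40.3 and 14.1 to 75.3, log2 fold change 1.26 ± 0.46, limma adjusted p = 0.0496). It lost its call without any of 10 libraries, all but 8C replicate 3 and Morula replicate 6 (0.0519 to 0.102). Mpc2, a subunit of the carrier that brings pyruvate into mitochondria, was the single fall, from 668 TPM (545 to 784) to 316 TPM (184 to 409.9), a log2 change of -1.22 ± 0.20 (limma adjusted p = 3.95e-04), with no overlap. The glycolysis list held 6 higher and 1 lower within replicates 1 to 3, and 10 and 1 within replicates 4 to 6.

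All 18 listed genes of sterol synthesis and uptake were tested, 10 were called higher, 8 were not called and none was lower, with a median of 1.47, against 9 after quantile normalization and 8 without Morula replicates 2 and 3. Mvd, a decarboxylase of the mevalonate steps, went from 2.84 TPM (1.21 to 9.23) to 23.4 TPM (15.9 to 32.6), a log2 change of 2.60 ± 0.39 (limma adjusted p = 2.39e-04). Mvk, the kinase of those steps, went from 0.703 TPM (0.0726 to 2.07) to 7.93 TPM (4.38 to 18.0), a log2 change of 2.44 ± 0.43 (limma adjusted p = 7.04e-04). Neither gene overlapped between stages. Nsdhl, a sterol dehydrogenase, went from 0.698 TPM (0.0573 to 2.81) to 5.87 TPM (3.17 to 14.2), a log2 change of 1.99 ± 0.39 (limma adjusted p = 0.00156). Insig1, an endoplasmic reticulum protein that holds the pathway's activator back when sterols are plentiful, went from 23.3 TPM (13.0 to 54.4) to 110.3 TPM (57.2 to 141), a log2 change of 1.89 ± 0.35 (limma adjusted p = 0.00116). Srebf2, which encodes that activator, went from 0.00675 TPM (0 to 0.478) to 2.56 TPM (0.933 to 3.93), a log2 change of 1.61 ± 0.31 (limma adjusted p = 0.00142). Cyp51, a demethylase of lanosterol, was called as well (log2 fold change 1.56 ± 0.39, limma adjusted p = 0.00703). So was Idi1, an isomerase of the isoprenoid steps (log2 fold change 1.38 ± 0.37, limma adjusted p = 0.0115). Sqle, squalene epoxidase, was not called (log2 fold change 0.81 ± 0.30, limma adjusted p = 0.0557). The sterol list held 11 higher and 0 lower within replicates 1 to 3, and 9 and 1 within replicates 4 to 6. Cyp51 had a log2 change of 2.27 (limma adjusted p = 0.0226) within replicates 1 to 3 and 0.85 (0.0876) within replicates 4 to 6.

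The promoters of the sterol genes were read from RefSeq (GRCm38.p6, the mm10 build), as 250 bases before to 50 bases after each start. Promoters were found for 7 of the 10 called genes, 1 each, and all 7 held the CCAAT box, spelled CCAAT or its complement ATTGG, on either strand. The share was 37.4% over all 32851 promoters, 38.6% over the promoters of genes tested and 41.0% over those of genes called higher. Promoters of 3 are shown for their place in the pathway and its control, 5′ to 3′ on the gene's strand, with the box in capitals, from chr8:122443373-122443672 (minus strand) for Mvd, chrX:72918271-72918570 (plus strand) for Nsdhl and chr5:28071162-28071461 (plus strand) for Insig1.
Mvd: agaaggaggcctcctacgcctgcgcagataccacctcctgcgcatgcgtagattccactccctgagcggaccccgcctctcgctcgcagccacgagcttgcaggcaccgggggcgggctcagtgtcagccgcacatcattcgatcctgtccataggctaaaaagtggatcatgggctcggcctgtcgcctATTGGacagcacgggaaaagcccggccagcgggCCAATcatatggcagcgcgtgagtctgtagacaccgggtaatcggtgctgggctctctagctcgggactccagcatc
Nsdhl: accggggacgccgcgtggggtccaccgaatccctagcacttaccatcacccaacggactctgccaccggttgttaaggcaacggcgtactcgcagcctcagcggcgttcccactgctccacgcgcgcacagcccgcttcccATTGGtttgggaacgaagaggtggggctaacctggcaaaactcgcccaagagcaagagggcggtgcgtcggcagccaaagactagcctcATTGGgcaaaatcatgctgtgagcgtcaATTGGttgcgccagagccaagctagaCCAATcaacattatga
Insig1: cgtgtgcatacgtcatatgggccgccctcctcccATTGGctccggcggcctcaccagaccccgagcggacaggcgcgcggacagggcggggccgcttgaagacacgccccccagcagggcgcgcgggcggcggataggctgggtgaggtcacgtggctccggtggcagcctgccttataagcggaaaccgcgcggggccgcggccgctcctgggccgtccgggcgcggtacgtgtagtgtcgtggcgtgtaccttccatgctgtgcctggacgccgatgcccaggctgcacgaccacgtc
None of the 7 held CACCCCAC, a core of the sterol response element, on either strand, and 2.87% of all promoters did. These were 2 of 4 motifs searched, picked with the results known, and a match is a description of the letters in this window.

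A list of oxidant defence genes was drawn up after Hmox1, Sqstm1 and Cat had been seen among the largest rises, so its counts are a description of genes chosen in part by their values. Of 20 genes 19 were tested, 13 were called higher and none lower, with a median of 1.42, against 11 after quantile normalization and 10 without Morula replicates 2 and 3. Hmox1, heme oxygenase, stood at 6.35 TPM (2.22 to 11.9) at 8C and 133 TPM (48.4 to 995) at morula (log2 fold change 4.38 ± 0.59, limma adjusted p = 9.14e-05). Sqstm1, the autophagy receptor p62, went from 21.9 TPM (2.17 to 26.2) to 294 TPM (176 to 369), a log2 change of 4.09 ± 0.43 (limma adjusted p = 1.21e-05). Cat, catalase, went from 3.43 TPM (0.589 to 7.88) to 56.9 TPM (46.0 to 93.8), a log2 change of 4.04 ± 0.45 (limma adjusted p = 2.12e-05). None of these 3 overlapped between stages, and the Hmox1 median was 20.1 TPM in ICM and 39.6 TPM in TE. Txnrd1, thioredoxin reductase, went from 2.65 TPM (0.459 to 7.78) to 35.5 TPM (15.8 to 95.9), a log2 change of 3.45 ± 0.52 (limma adjusted p = 2.31e-04). The substrate Txn1, thioredoxin, went from 67.4 TPM (33.0 to 146) to 335 TPM (251 to 539), a log2 change of 2.42 ± 0.34 (limma adjusted p = 1.34e-04). Srxn1, sulfiredoxin, went from 0.118 TPM (0.0188 to 0.204) to 4.75 TPM (0.651 to 20.7), a log2 change of 2.46 ± 0.46 (limma adjusted p = 0.00129). The iron-storing ferritin subunits were abundant at 8C and higher at morula. Ftl1 went from 2383 TPM (1898 to 3747) to 9227 TPM (4798 to 14691), a log2 change of 1.89 ± 0.23 (limma adjusted p = 3.94e-05). Fth1 went from 1099.6 TPM (1035 to 1287) to 2717 TPM (1499.7 to 6072), a log2 change of 1.34 ± 0.23 (limma adjusted p = 6.42e-04). Prdx6, a peroxiredoxin, went from 276 TPM (202 to 352) to 656 TPM (391.9 to 1202), a log2 change of 1.28 ± 0.23 (limma adjusted p = 9.30e-04). The remaining rises were G6pdx (1.82), Gclm (1.42), Prdx1 (1.14) and Gpx4 (1.01, all log2 fold changes). Gclm lost its call without 8C replicate 3 or 4 or Morula replicate 4. Prdx1 lost its call without 8C replicate 4 or 6 or Morula replicate 3. Gpx4 did so without 8C replicate 1 or 3 or Morula replicate 4, 5 or 6. The superoxide dismutase genes Sod1 and Sod2 were not called (log2 fold change 0.51 ± 0.22, limma adjusted p = 0.0924, and for Sod2 log2 fold change 0.10 ± 0.19, limma adjusted p = 0.716), and neither were Nqo1, Gclc, Gsr and Gpx1. Sod2 changed sign after quantile normalization (-0.07). The oxidant list held 7 higher and 0 lower within replicates 1 to 3, and 12 and 0 within replicates 4 to 6. Ftl1 had a log2 change of 1.202 (limma adjusted p = 0.0172) within replicates 1 to 3 and 2.57 (1.40e-06) within replicates 4 to 6. Gpx4 had a log2 change of 0.60 (limma adjusted p = 0.0991) within replicates 1 to 3 and 1.42 (6.67e-06) within replicates 4 to 6.

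The antioxidant response core TGACNNNGC, searched on both strands, was in 5 of the 17 promoters of the 11 called oxidant genes that RefSeq matched (29.4%), against 12.4% of all promoters and 16.6% of those of genes called higher. The 5 belonged to Srxn1, Gclm, Prdx1, Txnrd1 and G6pdx. The genes were chosen in part by their values and the motif was picked with the results known. Some genes have several promoters, so the shares only describe the letters in these windows. Promoters of 2 are shown, for an enzyme of thioredoxin and an enzyme of glutathione, with the core in capitals, from chr10:82858956-82859255 (plus strand) and chr3:122245307-122245606 (plus strand).
Txnrd1: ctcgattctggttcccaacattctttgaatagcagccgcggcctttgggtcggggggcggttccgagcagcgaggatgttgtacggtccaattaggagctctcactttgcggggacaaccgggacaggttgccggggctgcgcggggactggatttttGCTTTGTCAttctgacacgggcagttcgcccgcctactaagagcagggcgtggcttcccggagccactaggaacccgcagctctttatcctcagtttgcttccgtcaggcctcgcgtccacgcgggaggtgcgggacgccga
Gclm: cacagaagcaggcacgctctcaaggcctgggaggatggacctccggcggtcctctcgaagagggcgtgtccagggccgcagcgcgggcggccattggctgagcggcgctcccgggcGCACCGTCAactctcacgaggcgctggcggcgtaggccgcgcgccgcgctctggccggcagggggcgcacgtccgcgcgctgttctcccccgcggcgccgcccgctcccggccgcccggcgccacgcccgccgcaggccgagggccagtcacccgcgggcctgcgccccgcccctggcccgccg
The core lies 92 bases before the annotated start of Txnrd1, 134 before that of Gclm and 28 after that of Srxn1.

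**Figure D4:**
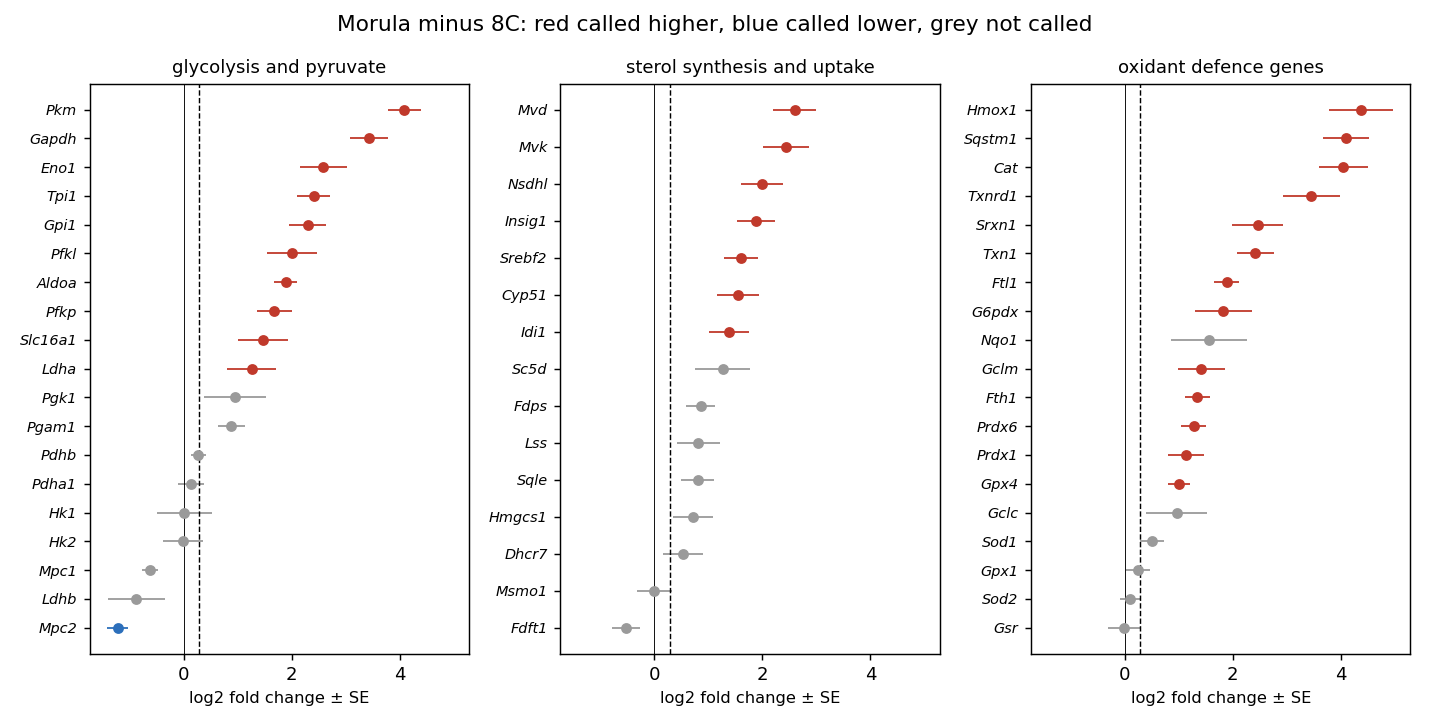
Morula minus 8C log2 fold change (horizontal axis, log2(TPM + 1) scale, bars are SE) of tested genes of the glycolysis, sterol and oxidant lists, with genes called higher in red, called lower in blue and not called in grey, and the median of all genes tested as a dashed line. Pkm (4.08), Hmox1 (4.38) and Sqstm1 (4.09) lie farthest to the right, and Mpc2 (-1.22) is the single called fall.

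Of 21 listed genes of the p53 response 19 were tested, 6 were called higher and 1 lower, with a median of 0.91 (5 and 1 after quantile normalization). Trp53 itself stood at 54.3 TPM (31.8 to 68.7) at 8C and 130.3 TPM (77.8 to 143) at morula (log2 fold change 1.25 ± 0.22, limma adjusted p = 8.38e-04). Cdkn1a, the cell cycle inhibitor p21, stood at 99.9 TPM (34.9 to 179) and 227 TPM (180.3 to 312), a log2 change of 1.43 ± 0.34 (limma adjusted p = 0.00590). Neither gene's stages overlapped. Ccng1, cyclin G1, went from 23.7 TPM (15.03 to 57.0) to 127 TPM (67.5 to 281), a log2 change of 2.30 ± 0.37 (limma adjusted p = 3.70e-04). Pmaip1, the proapoptotic NOXA, went from 0.432 TPM (0.0318 to 6.17) to 48.6 TPM (0.0911 to 134), a log2 change of 3.36 ± 0.98 (limma adjusted p = 0.0173). Mdm2, which marks p53 for breakdown, was not called (median 32.6 against 49.5 TPM, ranges 23.9 to 52.0 and 29.6 to 247, log2 fold change 0.87 ± 0.42, limma adjusted p = 0.133). Gdf15, a stress-induced cytokine, was called at a low level (median 0 against 2.33 TPM, ranges 0 to 0.240 and 0.953 to 6.06, log2 fold change 1.65 ± 0.34, limma adjusted p = 0.00215) and fell below the filter without Morula replicate 6. Mcl1, an antiapoptotic BCL2 relative, was the single fall, from 95.7 TPM (69.5 to 124) to 43.6 TPM (22.7 to 74.7), a log2 change of -1.19 ± 0.28 (limma adjusted p = 0.00573). The p53 list held 7 higher and 0 lower within replicates 1 to 3, and 4 and 2 within replicates 4 to 6. Cdkn1a had a log2 change of 2.46 (limma adjusted p = 0.00269) within replicates 1 to 3 and 0.41 (0.0581) within replicates 4 to 6. Pmaip1 had a log2 change of 5.07 (limma adjusted p = 0.00252) within replicates 1 to 3 and 1.65 (0.0829) within replicates 4 to 6.

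In the list of the integrated stress response and serine synthesis, 13 of 16 genes were tested, 4 were called higher and none lower, with a median of 1.19, and 2 were higher without Morula replicates 2 and 3. Mthfd2, a mitochondrial folate enzyme, went from 3.53 TPM (0.796 to 7.20) to 21.1 TPM (9.94 to 79.1), a log2 change of 2.53 ± 0.48 (limma adjusted p = 0.00138). Shmt2, which feeds it, went from 6.01 TPM (1.94 to 12.8) to 20.8 TPM (10.1 to 27.3), a log2 change of 1.49 ± 0.41 (limma adjusted p = 0.0129). Asns, asparagine synthetase, went from 38.6 TPM (14.0 to 48.3) to 84.9 TPM (57.1 to 527), a log2 change of 1.65 ± 0.45 (limma adjusted p = 0.0126). The Asns value of Morula replicate 3 stood far above the other 5. Slc3a2, the heavy chain of amino acid exchangers, went from 116 TPM (77.9 to 149) to 229.5 TPM (167 to 596), a log2 change of 1.36 ± 0.30 (limma adjusted p = 0.00324). Atf4, the factor at the head of this response, was not called (median 78.1 against 56.2 TPM, ranges 53.7 to 104 and 35.9 to 154, log2 fold change -0.13 ± 0.33, limma adjusted p = 0.791). Ddit3, known as CHOP, was not called either (median 5.24 against 12.9 TPM, ranges 0.410 to 25.2 and 5.78 to 44.9, log2 fold change 1.61 ± 0.64, limma adjusted p = 0.0711), but was without 8C replicate 1 (adjusted p = 0.0166). The stress response list held 5 higher and 0 lower within replicates 1 to 3, and 1 and 0 within replicates 4 to 6. Asns had a log2 change of 2.36 (limma adjusted p = 0.0464) within replicates 1 to 3 and 0.94 (0.0102) within replicates 4 to 6. Shmt2 had a log2 change of 2.35 (limma adjusted p = 0.0238) within replicates 1 to 3 and 0.64 (0.189) within replicates 4 to 6.

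Of the DNA replication and cell cycle list, 24 of 26 genes were tested, with a median of 0.45. Of the 24, 5 were called higher (20.8%, against 16.1% of all genes tested) and 1 lower (4.17%, against 5.46%). The rises were 4 subunits of the replicative helicase and Ccne2, a cyclin of the entry to S phase (log2 fold change 1.42 ± 0.46, limma adjusted p = 0.0279), though not without 8C replicate 1, 5 or 6 or Morula replicate 1 or 2 (0.0543 to 0.0650). Mcm7 stood at 23.6 TPM (11.6 to 44.1) at 8C and 77.1 TPM (64.3 to 241) at morula (log2 fold change 1.90 ± 0.35, limma adjusted p = 0.00104). Mcm5 stood at 16.1 TPM (12.8 to 47.4) and 56.7 TPM (45.6 to 231), a log2 change of 1.76 ± 0.39 (limma adjusted p = 0.00366). Mcm2 stood at 28.9 TPM (22.2 to 38.3) and 62.5 TPM (35.1 to 249), a log2 change of 1.21 ± 0.36 (limma adjusted p = 0.0196). In each of these 3, Morula replicate 2 was far above the rest. Without that library, or without Morula replicates 2 and 3 together, the list held 2 rises, and without replicate 2 Mcm2 was under 2-fold (log2 fold change 0.85). Quantile normalization gave 2 rises and 3 falls. Ccnb1, the mitotic cyclin B1, was the fall, from 2418 TPM (2098 to 3026) to 902 TPM (804 to 1862), a log2 change of -1.29 ± 0.18 (limma adjusted p = 1.21e-04), with no overlap. Another fall was called without 8C replicate 1, 8C replicate 2 or Morula replicate 3. Pcna, the replication clamp, was not called (median 202 against 245 TPM, ranges 160.2 to 293 and 187 to 311, log2 fold change 0.29 ± 0.19, limma adjusted p = 0.250). The D cyclins Ccnd1 (log2 fold change -0.67 ± 0.32, limma adjusted p = 0.125) and Ccnd3 (log2 fold change 1.67 ± 0.62, limma adjusted p = 0.0539) were not called either. Ccnd3 was called without 8C replicate 4, 8C replicate 6, Morula replicate 1 or Morula replicate 3 (adjusted p = 0.0231 to 0.0472). Ccnd1 was called lower after quantile normalization (log2 fold change -1.02). The cell cycle list held 3 higher and 0 lower within replicates 1 to 3, and 2 and 3 within replicates 4 to 6. Mcm5 had a log2 change of 2.59 (limma adjusted p = 0.0169) within replicates 1 to 3 and 0.93 (0.0499) within replicates 4 to 6. Mcm2 had a log2 change of 1.72 (limma adjusted p = 0.0626) within replicates 1 to 3 and 0.70 (0.0828) within replicates 4 to 6.

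Oocyte and maternal genes had a negative median, -0.54. Of 23 listed genes 13 were tested, 2 were called higher (15.4%, against 16.1% of all genes tested) and 3 lower (23.1%, against 5.46%). After quantile normalization 2 were called higher and 5 lower. Npm2, an oocyte histone chaperone, went from 15.3 TPM (8.62 to 19.7) to 2.01 TPM (0.511 to 8.91), a log2 change of -2.21 ± 0.44 (limma adjusted p = 0.00167). Oog1 went from 4.32 TPM (3.03 to 9.25) to 0.438 TPM (0.154 to 0.900), a log2 change of -1.99 ± 0.32 (limma adjusted p = 3.96e-04). Btg4, an adaptor in maternal mRNA decay, was called lower (log2 fold change -1.21 ± 0.44, limma adjusted p = 0.0485) but not without any of 9 libraries, all but 8C replicates 1 and 5 and Morula replicate 3 (adjusted p = 0.0653 to 0.108). Its median was 88.0 TPM at 4C and 3.25 TPM at 8C. Khdc3, of the subcortical maternal complex, was called higher, from 270.2 TPM (134 to 319) to 1072 TPM (300.4 to 1427), a log2 change of 1.87 ± 0.32 (limma adjusted p = 5.84e-04). Ooep, of the same complex, went from 3.19 TPM (1.24 to 7.09) to 13.0 TPM (9.11 to 15.4), a log2 change of 1.72 ± 0.33 (limma adjusted p = 0.00148). Their ICM medians were 3258 TPM and 26.5 TPM. Zp3, of the egg coat, was not called (log2 fold change -0.49 ± 0.47, limma adjusted p = 0.452), and Zp1 and Zp2 were below the filter. The oocyte list held 0 higher and 2 lower within replicates 1 to 3, and 3 and 2 within replicates 4 to 6.

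Of 19 genes listed for the burst of transcription at the 2-cell stage, 11 were tested, none was called higher and 3 were called lower, with a median of -0.46. Usp17lb, a ubiquitin protease of a multicopy family, went from 15.8 TPM (11.6 to 25.3) to 5.37 TPM (0.353 to 7.004), a log2 change of -1.85 ± 0.42 (limma adjusted p = 0.00414), with no overlap. Sp110, a nuclear body protein, went from 330.0 TPM (158 to 508) to 78.4 TPM (53.1 to 679.8), a log2 change of -1.52 ± 0.49 (limma adjusted p = 0.0294). Tdpoz4, of a multicopy family, went from 24.3 TPM (18.3 to 52.8) to 0.901 TPM (0.0980 to 99.2), a log2 change of -3.03 ± 0.82 (limma adjusted p = 0.0121). In both, Morula replicate 3 was the highest of all 12 libraries while the other 5 morula libraries were low. Sp110 lost its call without 8C replicate 4, 5 or 6 or Morula replicate 1, 4, 5 or 6 (0.0517 to 0.0714), and the list held 5 falls without Morula replicate 3 and without Morula replicates 2 and 3 together. Zscan4c and Zscan4d, the best known genes of that burst, were at or near 0 in every library, none above 0.0828 TPM. The 2-cell list held 0 higher and 0 lower of 11 tested within replicates 1 to 3, and 1 and 6 of 10 within replicates 4 to 6. Tdpoz4 had a log2 change of -1.75 (limma adjusted p = 0.363) within replicates 1 to 3 and -4.32 (4.68e-05) within replicates 4 to 6. Sp110 had a log2 change of -0.32 (limma adjusted p = 0.779) within replicates 1 to 3 and -2.72 (5.37e-06) within replicates 4 to 6.

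Of 26 listed genes of H3K9 and DNA methylation, 23 were tested, 3 were called higher (13.0%, against 16.1% of all genes tested) and 1 lower (4.35%, against 5.46%), with a median of 0.19 that became -0.18 after quantile normalization, where 1 was higher and 4 were lower. The H3K9 methyltransferase genes were not called as deposited, though a member not described below was called lower after quantile normalization. Setdb1 stood at 7.43 TPM (4.11 to 11.7) at 8C and 5.48 TPM (1.52 to 18.2) at morula (log2 fold change -0.29 ± 0.43, limma adjusted p = 0.633). Suv39h1 stood at 8.74 TPM (6.60 to 15.2) and 11.1 TPM (3.59 to 13.9), a log2 change of -0.05 ± 0.35 (limma adjusted p = 0.927). Suv39h2 stood at 0.801 TPM (0.0457 to 3.31) and 2.04 TPM (1.41 to 4.34), a log2 change of 0.80 ± 0.37 (limma adjusted p = 0.113). Suv39h2 was called higher without 8C replicate 2 (adjusted p = 0.0396). Trim28, the corepressor that brings SETDB1 to DNA, was not called (median 93.1 against 119 TPM, ranges 45.3 to 150.5 and 81.6 to 139, log2 fold change 0.35 ± 0.27, limma adjusted p = 0.348). Cbx3, which encodes HP1 gamma, a reader of H3K9 methylation, was the fall, from 819.7 TPM (583 to 1202) to 318 TPM (202 to 423), a log2 change of -1.45 ± 0.21 (limma adjusted p = 1.58e-04), with no overlap. Its median had been 957 TPM at 4C and was 957 TPM in ICM. Tet2, a dioxygenase that oxidizes methylcytosine, went from 2.06 TPM (1.31 to 4.52) to 14.2 TPM (5.70 to 28.5), a log2 change of 2.27 ± 0.38 (limma adjusted p = 5.05e-04), with no overlap. Dnmt1, the maintenance methyltransferase, was not called (log2 fold change 0.63 ± 0.42, limma adjusted p = 0.274). The de novo methyltransferase gene Dnmt3b was called (log2 fold change 1.26 ± 0.45, limma adjusted p = 0.0470) but not without any of 8 libraries, 8C replicates 1 to 3 and Morula replicates 2 to 6 (adjusted p = 0.0511 to 0.103). The histone chaperone gene Daxx was called (log2 fold change 1.30 ± 0.46, limma adjusted p = 0.0467) but not without any of 8 libraries, 8C replicates 1 to 5 and Morula replicates 1, 2 and 5 (0.0552 to 0.0955). The list held 1 rise without 8C replicate 1, 8C replicate 3, Morula replicate 2 or Morula replicate 5, and 2 falls without 8C replicate 3 or Morula replicate 3. Without Morula replicates 2 and 3 it held 1 rise and 4 falls. The H3K9 list held 1 higher and 1 lower within replicates 1 to 3, and 1 and 3 within replicates 4 to 6. Daxx had a log2 change of 1.86 (limma adjusted p = 0.0958) within replicates 1 to 3 and 0.74 (0.323) within replicates 4 to 6. Dnmt3b had a log2 change of 1.88 (limma adjusted p = 0.0933) within replicates 1 to 3 and 0.64 (0.188) within replicates 4 to 6.

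The MAX and MCRS1 list held factors that the study linked to H3K9me3, such as MAX, MCRS1 and MYCN, together with partner factors chosen here. Of its 20 genes 15 were tested and none was called. Over all genes tested, 16.1% were called higher and 5.46% lower. In this list 1 was called higher without 8C replicate 6, Morula replicate 3 or Morula replicate 5. It held 1 fall without Morula replicate 1, 2 or 3. Without Morula replicates 2 and 3 together, 2 were called lower. After quantile normalization 1 was called lower and 0 higher. Max stood at 3.86 TPM (0.879 to 11.1) at 8C and 11.5 TPM (2.49 to 22.9) at morula (log2 fold change 1.31 ± 0.51, limma adjusted p = 0.0651), and was called without 8C replicate 6 or Morula replicate 5 (adjusted p = 0.0304 and 0.0195). Mcrs1 stood at 138 TPM (50.7 to 246) and 164 TPM (102 to 218), a log2 change of 0.18 ± 0.31 (limma adjusted p = 0.682), and Mycn, a binding partner of MAX, was below the filter. Of the genes imprinted through H3K27me3, with Xist, 9 of 10 were tested, 3 were called higher and 1 lower, also after quantile normalization. Jade1 (log2 fold change 1.82 ± 0.43, limma adjusted p = 0.00529), Gab1 (log2 fold change 1.58 ± 0.44, limma adjusted p = 0.0135) and Slc38a4 (log2 fold change 1.38 ± 0.31, limma adjusted p = 0.00390) were the rises. Slc38a4, an amino acid transporter, went from 11.01 TPM (6.80 to 16.0) to 29.2 TPM (16.3 to 44.8) without overlap and had a median of 274 TPM in ICM. Etv6, an ETS factor, was the fall (median 11.6 against 2.84 TPM, ranges 6.23 to 14.8 and 1.97 to 11.4, log2 fold change -1.37 ± 0.39, limma adjusted p = 0.0148). Xist, the RNA that silences an X chromosome, was not called (median 10.6 against 14.3 TPM, ranges 5.22 to 15.8 and 9.23 to 21.8, log2 fold change 0.48 ± 0.31, limma adjusted p = 0.248). The MAX and MCRS1 list held 3 higher and 0 lower within replicates 1 to 3, and 0 and 4 within replicates 4 to 6. In each series 15 of its genes were tested. The imprinted list held 0 higher and 0 lower within replicates 1 to 3, and 4 and 1 within replicates 4 to 6, with 8 tested in each.

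**Figure D5:**
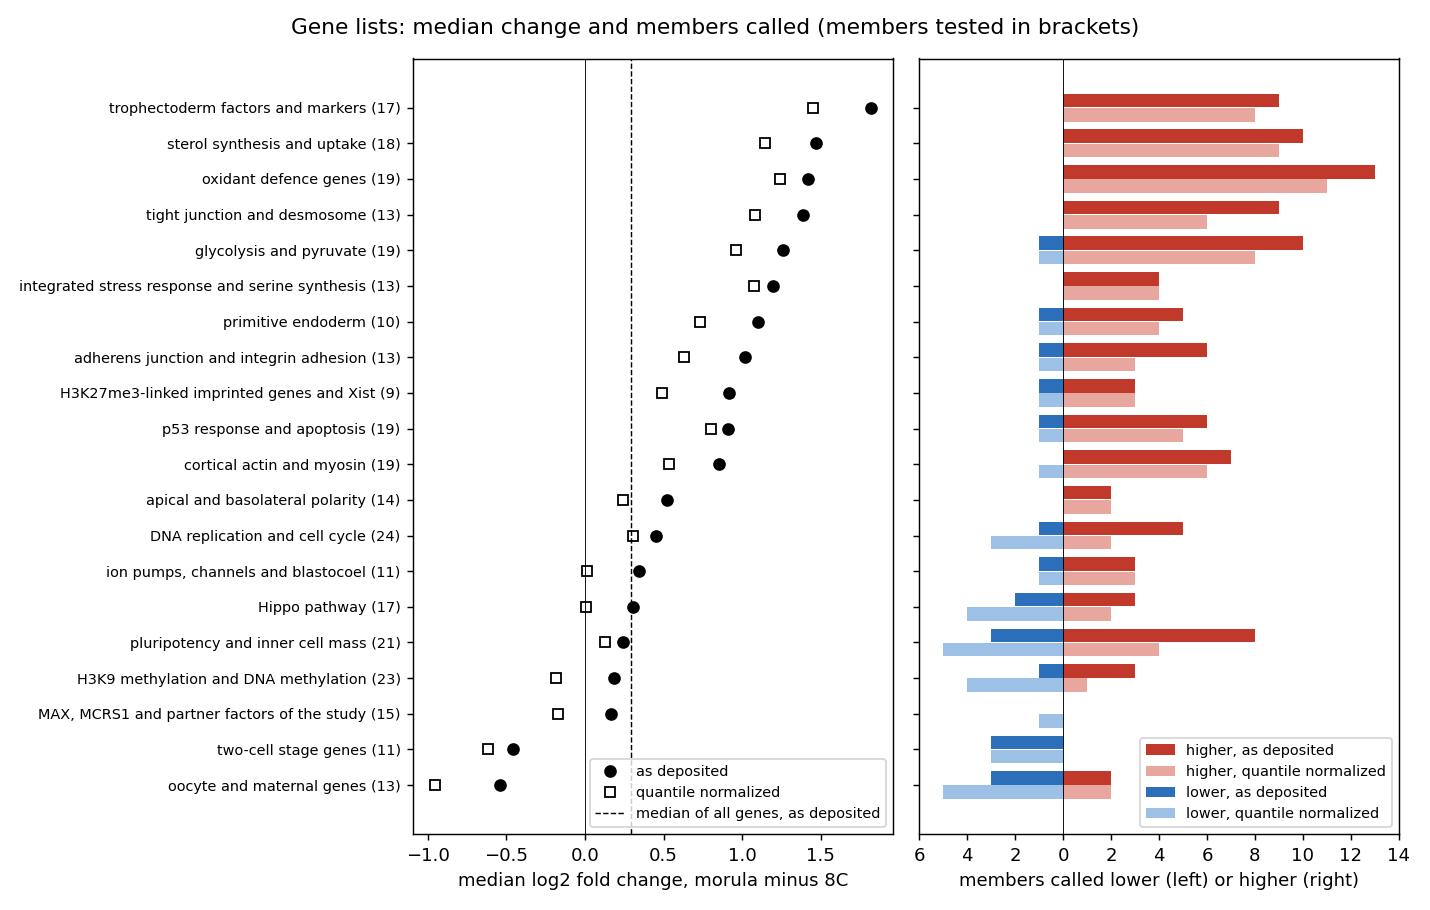
Left, the median log2 fold change (morula minus 8C, log2(TPM + 1) scale) of the tested members of each list with at least 5 of them, as deposited (filled points) and after quantile normalization (open squares), with the median of all genes tested (0.29) as a dashed line. Right, the number of members called lower (bars to the left) and higher (bars to the right) on both scales. The trophectoderm (1.82), sterol (1.47) and oxidant (1.42) medians lie farthest right, and the oocyte (-0.54) and 2-cell (-0.46) medians lie below 0, while the cumulus list, of which 1 gene was tested (-0.51), is left out.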

How the data were processed

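RNA from 10 pooled blastomeres per library was amplified by Smart-seq2 and sequenced as read pairs. Per the labels and the study's methods, the authors trimmed reads with cutadapt 1.16, aligned them to mm10 with HISAT2 and quantified them with StringTie. Version numbers of HISAT2 and StringTie, and the strand setting, are not given in the sources used here. Each deposited table held coverage (a signal per gene), FPKM and TPM. The deposited TPM column is treated as a score, because assembled loci without a gene name share its total with the reference genes. Rows without a gene name were left out and the deposited TPM was summed per symbol. No counts were in these tables, so the count test of the study was not run. Aligned bases were computed as coverage divided by FPKM, as StringTie defines them, and the depth of 2.89 to 4.22 gigabases per library sets the precision of low levels.

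Genes with a mean of at least 1 TPM were fitted as log2(TPM + 1) with limma 3.58.1 (lmFit, then eBayes with trend, R 4.3.3) on the 12 libraries, morula minus 8C, with Benjamini-Hochberg adjustment over all genes tested. The library measures were compared by a two-sided exact permutation test (scipy 1.17.1), adjusted over the 2 measures. Tables were handled in Python 3.11.15 with pandas 2.3.3 and numpy 2.4.6, and plots drawn with matplotlib 3.10.9. The fit was also run on simulated data with independent noise for each gene. That simulation held no differences between libraries or series of the kind described here, so it does not bear on them. Named genes were the 10 largest rises and 10 largest falls among called genes without overlap and with a mean of at least 5 TPM (unnamed gene models left out), preset members of each list, and up to 4 called members of each list per direction. A further 20 genes, and the oxidant list, were chosen after their values were seen. A few list members count in their lists' totals but are not reported here singly. The comparison and the 20 other lists were chosen with earlier results of these data known, and no list was tested as a set. Alternatives covered the pseudocount, filter, scaling, library weights, a replicate block and the omission of libraries. The omission of Morula replicates 2 and 3 together was chosen after seeing the data. SCNT libraries of other stages and CC served for levels only, and 12 libraries from fertilized embryos were not used here.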

Additional observations from a re-analysis of the deposited data

Results flagged for a closer look

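Among the 360 sets of 6 libraries formed by the 180 named genes at each stage, 38 held a library whose gap to the next, divided by the whole range on the log2(TPM + 1) scale, was above Dixon's 95% critical value. For normally spread levels this value flags about 1 set in 20. Some flagged sets, such as those of Sox2 and Zscan4d, held 0 in all libraries but 1, and the sets share libraries. The 38 flags are therefore not to be read against that rate. In 28 the library was the highest of its stage and in 10 the lowest, and Morula replicate 2 (13 sets) and Morula replicate 3 (7 sets) took the most. Genes of the replicative helicase, the glucose transporter Slc2a3 and Pou5f1 are among those that Morula replicate 2 carried high, and the genes of the 2-cell burst Sp110 and Tdpoz4 among those of Morula replicate 3. Causes were not tested.

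Morula replicate 2 was the highest of its stage for Lats2 at 5.90 TPM (others 1.60 to 2.62), Pou5f1 at 351 TPM (others 55.7 to 82.5), Actn4 at 761 TPM (others 82.8 to 167) and Tbx3 at 98.4 TPM (others 11.04 to 18.2). It was also the highest for Slc2a3 at 345 TPM (others 67.7 to 89.9), Mcm7 at 241 TPM (others 64.3 to 86.3), Mcm5 at 231 TPM (others 45.6 to 65.7) and Mcm2 at 249 TPM (others 35.1 to 73.2). It was also the highest for Etv6 at 11.4 TPM (others 1.97 to 3.27). Morula replicate 2 was the lowest of its stage for Omt2b at 1.37 TPM (others 4.06 to 6.37), Usp17lb at 0.353 TPM (others 3.24 to 7.004), Hk2 at 3.54 TPM (others 15.9 to 22.6) and Sod1 at 1022 TPM (others 1798 to 2361). Morula replicate 3 was the highest of its stage for Gata4 at 4.37 TPM (others 0 to 0.374), Ccnb1 at 1862 TPM (others 804 to 934), Itgav at 3.62 TPM (others 0 to 0.767) and Tdpoz4 at 99.2 TPM (others 0.0980 to 1.96). It was also the highest for Sp110 at 679.8 TPM (others 53.1 to 117) and Asns at 527 TPM (others 57.1 to 91.9). Morula replicate 3 was the lowest of its stage for Zfp42 at 54.6 TPM (others 136 to 204). Morula replicate 1 was the highest of its stage for Mycn at 1.77 TPM (others 0 to 0.371) and Fgf4 at 3.43 TPM (others 0.710 to 1.12). Morula replicate 1 was the lowest of its stage for Trp53 at 77.8 TPM (others 123 to 143) and Ccnd1 at 1.70 TPM (others 2.78 to 3.57). 8C replicate 2 was the highest of its stage for Pdgfra at 0.560 TPM (others 0 to 0.0718), Ptx3 at 1.12 TPM (others 0 to 0.0664) and Slc2a1 at 8.80 TPM (others 0.0220 to 0.706). 8C replicate 2 was the lowest of its stage for Tfcp2l1 at 0.990 TPM (others 4.02 to 6.97). 8C replicate 5 was the highest of its stage for Sox17 at 0.109 TPM (others 0 to 0.0387), Zscan4c at 0.0828 TPM (others 0 to 0.0187), Zscan4d at 0.0113 TPM (others at 0) and Tjp3 at 2.88 TPM (others 0 to 0.598). Morula replicate 4 was the highest of its stage for Zscan4c at 0.0234 TPM (others at 0) and Zscan4d at 0.00849 TPM (others at 0). 8C replicate 1 was the lowest of its stage for Sqstm1 at 2.17 TPM (others 15.5 to 26.2). 8C replicate 4 was the highest of its stage for Sox2 at 0.0389 TPM (others at 0). 8C replicate 3 was the lowest of its stage for Epcam at 13.1 TPM (others 27.6 to 34.6). Morula replicate 5 was the highest of its stage for Sox2 at 0.0318 TPM (others at 0).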

How the results depend on the processing

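Of the 166 named genes tested, each under up to 25 alternatives, 3773 values kept direction and call, 254 kept the direction and lost the call, 55 gained a call and 36 changed sign, in 16 genes. None of the 125 called genes changed sign under any of the 25. The share of calls that were rises was 74.7%, against 68.1% with TPM rescaled over reference genes, 47.3% after quantile normalization, 66.4% with library quality weights and 62.0% without Morula replicates 2 and 3. Replicates 1 to 3 and 4 to 6 may be separate series. The count of 2135 calls was 1152 with replicates 1 to 3 alone. The 1595 rises became 896 after quantile normalization and 925 with replicates 1 to 3 alone. The 540 falls became 1000 after quantile normalization, 227 with replicates 1 to 3 alone, 876 with replicates 4 to 6 alone, 839 with library quality weights and 822 without Morula replicates 2 and 3. Leaving out single libraries gave 1789 to 2319 calls, 1308 to 1628 rises and 438 to 718 falls. Without Morula replicate 3 there were 718 falls and without Morula replicate 2 there were 563. The excess of genes detected per library at morula was 1105.7 with replicates 1 to 3 alone and 476 with 4 to 6, and the higher share in reference genes 8.27 and 4.51 percentage points (each p = 0.1, the smallest an exact permutation test of 3 against 3 allows). The replicate numbers are shared between stages, but same-numbered libraries did not deviate together (correlations of -0.23 to 0.18, 1 of 6 8C libraries correlating best with its own number), so they were not taken as pairs. With the replicate number as a block there were 2102 calls, 1575 higher and 527 lower. With replicates 1 to 3 alone the log2 fold changes with the opposite sign were Tjp1 0.50, Yap1 0.12, Klf4 0.54, Atf4 0.25, Setdb1 0.10, Gsr 0.75, Sod2 -0.14, Hand1 0.72. With replicates 4 to 6 alone the log2 fold changes with the opposite sign were Tead4 -0.13, Tfap2c -0.0713, Zp3 0.14, Mdm2 -0.0172, Hk2 0.33, Suv39h1 0.14, Trim28 -0.13, Mcrs1 -0.12. With library quality weights the log2 fold changes with the opposite sign were Hk2 0.19. Without Morula replicates 2 and 3 the log2 fold changes with the opposite sign were Hk2 0.36. After rescaling over reference genes the log2 fold changes with the opposite sign were Sod2 -0.00686. After quantile normalization the log2 fold changes with the opposite sign were Sod2 -0.0703. Over single libraries left out, the values of the genes that changed sign ranged as follows: Atf4 -0.36 to 0.0519, Hk2 -0.13 to 0.35, Suv39h1 -0.17 to 0.17, Mcrs1 -0.0940 to 0.36, Gsr -0.21 to 0.16. None of these genes was called in the comparison as reported. Without the level filter 1501 of 19282 genes were called, and in a fit over all 53 SCNT libraries 1631. Depth limits most the genes near 1 TPM, where a zero in a library can be a missed transcript. Causes were not tested.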

Other observations

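Some gene classes outside the lists were counted after the values were seen, as a description with no test. Cytosolic ribosomal protein genes mostly stayed out of the calls. Of 82 tested, none was called higher (against 16.1% of all genes tested) and 1 lower (1.22%, against 5.46%). Their median log2 fold change was -0.07, against 0.29 over all genes tested. Of 37 proteasome subunit genes, 10 were called higher (27.03%, against 16.1% of all genes tested) and 2 lower (5.41%, against 5.46%), with a median of 0.49, and quantile normalization left 8 higher and 2 lower. Of 36 genes of respiratory chain complex I, 2 were called higher (5.56%, against 16.1%) and none lower (against 5.46%), with a median of 0.22. The 336 X-linked genes tested gave 38 higher (11.3%, against 16.1%) and 31 lower (9.23%, against 5.46%), with a median of 0.09. After quantile normalization 25 were higher and 51 lower.

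Calls depended on level. Rises made up 14.7% of genes with a mean of 1 to 5 TPM, 18.8% of those from 5 to 20, 19.6% of those from 20 to 100 and 9.45% of those above 100. The median log2 fold changes in these bands were 0.37, 0.37, 0.28 and 0.07. The gene classes counted above were not matched to all genes by level. The TEAD core GGAATG, searched on both strands, was in 1 of 7 promoters of trophectoderm genes called higher, against 14.7% of all promoters.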
